A study of Mus musculus with 8 samples.

Results

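The 7 genes described here make up the MHC class II presentation pathway of mouse cell lines derived from lung squamous cell carcinoma (LUSC): Ciita, H2-Aa, H2-Ab1, H2-Eb1, Cd74, H2-DMa and H2-DMb1. They were chosen by gene name, and all 7 were found among the 55487 genes of the deposited tables. All 7 also passed the filter on low counts for the comparisons between lines, which left 18648 genes. Ciita and H2-Aa did so only through the PLA libraries, as they had at most 5 and 3 counts in any other library. There were 4 lines, named PLA, PLA4, PL12 and PL1, with 2 bulk RNA-seq libraries each and 8 in all. All were derived from genetically engineered mouse models of LUSC, and the study is about the loss of ACKR3, a chemokine receptor of the atypical kind. The labels name the PLA lines (PLA and PLA4) beside the PL lines (PL12 and PL1). They do not spell out the letters, the engineered alleles that all lines share, or whether a line is a clone.

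MHC class II molecules are pairs of an alpha and a beta chain that present peptides from the endosome to CD4+ T cells. Professional antigen-presenting cells make them throughout, and epithelial cells mostly after exposure to interferon gamma. The protein encoded by Ciita binds no DNA itself. It joins a complex of RFX, CREB and NF-Y factors that sits on the promoters of class II genes, and is known as the switch that sets their transcription.

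The libraries held 48857960 to 142458281 counts, so a floor of 3 counts corresponded to 0.0208 to 0.0614 CPM (counts scaled to library size). Ackr3, the gene of the receptor that the study is about, had 0.0487 and 0.0254 CPM in the PLA libraries and 0.387 and 0.228 CPM in the PLA4 libraries, against 25.3 and 26.3 CPM in PL12 and 86.3 and 33.2 CPM in PL1. In the deposited TPM, which is scaled per transcript length, the gap was smaller, with 1.61 and 1.25 in PLA4 against 12.6 and 13.8 in PL12. The squamous and epithelial markers Krt5, Krt14, Trp63 and Epcam were detected in every line. Krt5 averaged 6491 CPM and Trp63 356 CPM in PLA, against 299 and 27.7 CPM in PL12, the line lowest in both. Libraries of a line were not equally alike. The number of tested genes that differed over 2-fold between them was 8 in PLA, 64 in PL12, 1174 in PL1 and 1416 in PLA4. Separate cultures are not stated in the labels for the libraries of a line. The p-values here therefore measure the spread between libraries, which may be technical.

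All 7 genes were detected above the floor in both PLA libraries, whereas Ciita and H2-Aa lay at or near the floor in the other lines. The transactivator Ciita, the alpha chain gene H2-Aa, the beta chain gene H2-Eb1 and the invariant chain gene Cd74 were higher in PLA than in each of the other 3 lines. These are 4 of the 7 genes, where 5.08% of all tested genes were called higher in all 3 comparisons. Of the 4, Ciita and H2-Aa passed the filter on low counts only through PLA. H2-Ab1, the other beta chain gene, was also highest in PLA but was not called against PL1. PL1 libraries, with at most 1 Ciita count, held 14.9 and 23.7 CPM of it. H2-DMa and H2-DMb1 were detected in all lines at levels that differed less.

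Ciita (ENSMUSG00000022504.10, chr16:10480059-10528418, plus strand, GRCm38) was at a low level even where it was present. It had 0.666 and 0.576 CPM in the PLA libraries, from 82 and 68 counts. PLA4 had 0.0232 and 0.0138 CPM, from 3 and 2 counts, and PL12 had 0.0205 and 0.0460 CPM, from 1 and 5 counts. PL1 had 0 and 1 counts, and the count of 0 allows up to 0.0345 CPM. Both PLA libraries thus stood above all 6 others, and the other 3 lines lay at or near the floor. The ratio of summed counts was 34.0 for PLA over PLA4 (95% exact interval 14.3 to 106), 16.3 for PLA over PL12 (7.33 to 45.2) and 125 for PLA over PL1 (22.0 to 4953). These intervals, like the floors, cover counting error only. By edgeR's quasi-likelihood test with Benjamini-Hochberg adjustment, Ciita was higher in PLA than in PLA4 (adjusted p = 0.00457), PL12 (adjusted p = 0.00549) and PL1 (adjusted p = 0.00326). Without PLA replicate 1, edgeR's adjusted p was 0.0519 against PLA4 and 0.0552 against PL12, and without PL12 replicate 1 it was 0.0524 against PL12. Ciita overlaps the gene Dexi on the opposite strand, and the sources used here do not say that counting used strand. Dexi had 211 to 1753 expected counts per library, and the expected counts of Ciita were fractional in 0 libraries. In bulk samples, fewer cells that express a gene and less RNA per cell cannot be told apart.

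**Figure D1:**
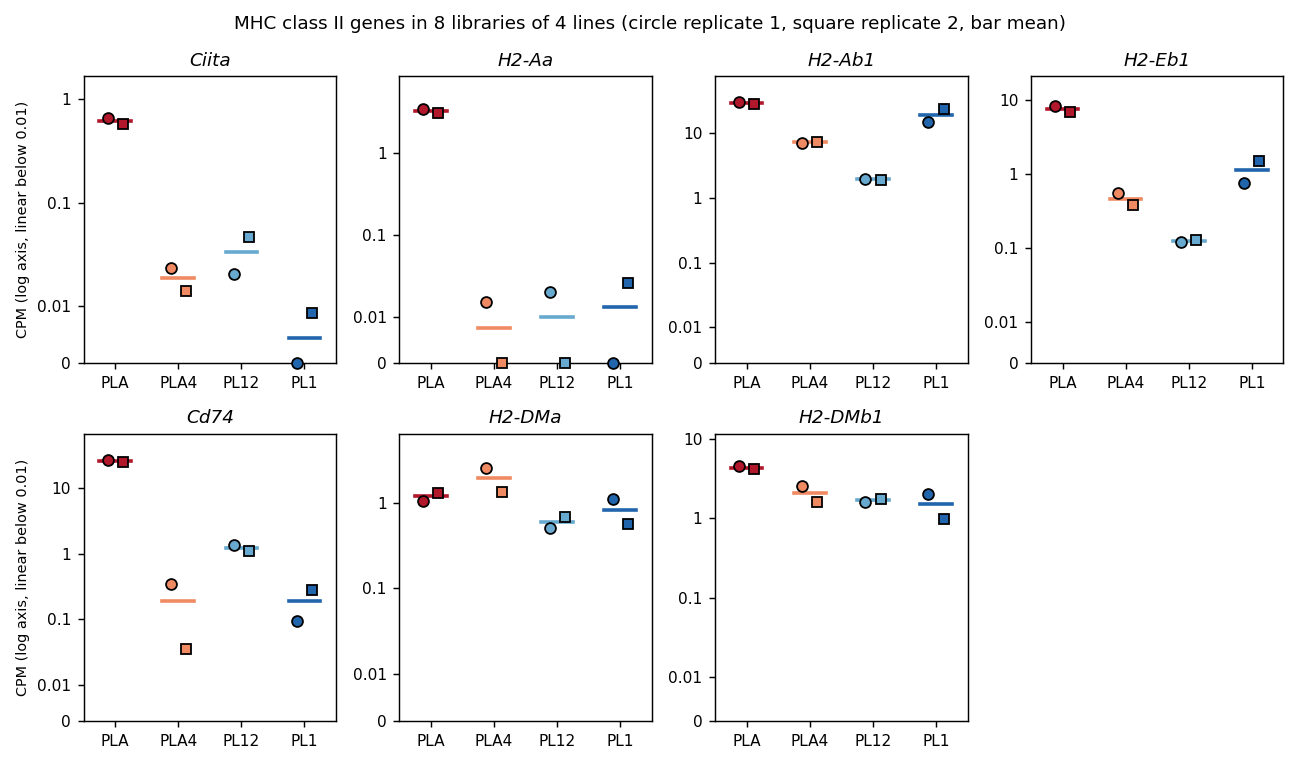
Levels of the 7 genes in each library, in CPM on a log axis that is linear below 0.01, with lines from left to right in the order PLA, PLA4, PL12, PL1, the libraries as points (circle replicate 1, square replicate 2) and the line mean as a bar. The PLA points stand above all others for every gene but H2-DMa, while H2-Ab1 in PLA (30.5 and 28.9 CPM) lies only a little above PL1 (14.9 and 23.7 CPM).

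H2-Aa (ENSMUSG00000036594.15, chr17:34282744-34287823, minus strand) encodes the alpha chain that pairs with the product of H2-Ab1. It had 3.41 and 3.03 CPM in PLA, from 420 and 358 counts. The 6 other libraries held 6 counts in all: 2 and 0 in PLA4, 1 and 0 in PL12, and 0 and 3 in PL1. H2-Aa thus had no overlap between PLA and the rest, and of the 7 genes the highest fold estimate in each of the 3 comparisons with PLA. The ratio of summed counts was 441 for PLA over PLA4 (95% exact interval 122 to 3650), 509 over PL12 (91.0 to 20111) and 215 over PL1 (73.4 to 1047). These intervals overlap those of Cd74 over PLA4 (108 to 194) and PL1 (94.5 to 180), and that of H2-Eb1 over PL12 (39.2 to 99.5). The highest rank of H2-Aa is therefore not resolved. Its edgeR adjusted p was 0.00614 against PLA4, 0.00513 against PL12 and 0.00770 against PL1. The comparison with PL1 no longer passed without PLA replicate 1 (edgeR adjusted p = 0.0544) or PLA replicate 2 (edgeR adjusted p = 0.0521), nor the comparison with PL12 without PL12 replicate 2 (edgeR adjusted p = 0.0541). Between PLA4, PL12 and PL1 no difference in H2-Aa was detectable at this depth.

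H2-Ab1 (ENSMUSG00000073421.6, chr17:34257689-34269419, plus strand) encodes the beta chain of the same molecule, and was the gene of the set with the highest TPM in every library. It had 30.5 and 28.9 CPM in PLA and 7.22 and 7.51 CPM in PLA4, against 1.99 and 1.93 CPM in PL12 and 14.9 and 23.7 CPM in PL1. The order was thus PLA, PL1, PLA4, PL12, with no overlap between the libraries of neighbouring lines. PLA exceeded PLA4 by 2.01 ± 0.23 on the log2 scale (SE, 2 libraries a line; edgeR adjusted p = 0.00299) and PL12 by 3.92 ± 0.26 (edgeR adjusted p = 0.000457). PLA over PL1 came to 0.62 ± 0.23 and was not called (edgeR adjusted p = 0.0862); it passed without PL1 replicate 2 (0.93, edgeR adjusted p = 0.0132). H2-Ab1 was 1.59-fold higher in PL1 replicate 2 than in replicate 1 (95% exact interval 1.48 to 1.70). The summed level of 4 fibroblast markers was 278 CPM in replicate 2, of which Col1a1 had 254 CPM, and 3.08 CPM in replicate 1. That of macrophage and monocyte markers was 95.4 CPM in replicate 2 and 12.5 CPM in replicate 1, and Krt14 had 3148 and 7813 CPM. These libraries differed over 2-fold in 1174 tested genes. The part of the markers in the H2-Ab1 difference was not tested.

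Among the 3 lines at the floor of Ciita and H2-Aa, H2-Ab1 differed between each pair. PL12 over PL1 was -3.30 ± 0.25 on the log2 scale (edgeR adjusted p = 0.00112), PLA4 over PL12 was 1.91 ± 0.24 (edgeR adjusted p = 0.00254) and PLA4 over PL1 was -1.39 ± 0.23 (edgeR adjusted p = 0.0232). The first and second of these were called in all 12 alternative settings. The third kept a log2 difference of about that size, but its edgeR adjusted p was 0.0866 and 0.0859 without PLA replicate 1 or 2, 0.0726 and 0.0719 without PL12 replicate 1 or 2, and 0.0515 with the replicate number as a block. The annotation (GENCODE release M21) gives H2-Ab1 8 transcripts, 3 of them protein-coding. A transcript not marked as coding starts at position 34257689, upstream of the coding transcripts, of which the first starts at 34263209. The gene-level values do not show which transcripts were counted.

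H2-Eb1 (ENSMUSG00000060586.11, chr17:34305867-34316674, plus strand) encodes the beta chain of the second mouse class II molecule. It had 8.41 and 6.95 CPM in PLA and 0.557 and 0.381 CPM in PLA4, against 0.123 and 0.129 CPM in PL12 and 0.759 and 1.53 CPM in PL1. The lines stood in the same order as for H2-Ab1, again with no overlap between neighbours, but the step below PLA was larger. PLA exceeded PLA4 by 4.03 ± 0.46 on the log2 scale (SE; edgeR adjusted p = 0.00279), PL12 by 5.92 ± 0.51 (edgeR adjusted p = 0.000851) and PL1 by 2.75 ± 0.43 (edgeR adjusted p = 0.00684). Against PL1 the call was lost without PLA replicate 1 (edgeR adjusted p = 0.0641) or PLA replicate 2 (edgeR adjusted p = 0.0509).

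Outside PLA, H2-Eb1 was lower in PL12 than in PL1 (-3.17 ± 0.47, edgeR adjusted p = 0.00697) and higher in PLA4 than in PL12 (1.88 ± 0.46, edgeR adjusted p = 0.0213). PLA4 over PL1 was -1.29 ± 0.42 and was not called (edgeR adjusted p = 0.106), though it passed by DESeq2 (adjusted p = 0.0350) and without PL1 replicate 1 (-1.70, edgeR adjusted p = 0.0399). The PL12 over PL1 call was lost without PL12 replicate 1 or 2 (edgeR adjusted p = 0.0680 and 0.0700). The PLA4 over PL12 call was lost without PLA replicate 1 or 2 (edgeR adjusted p = 0.0550 and 0.0539), PLA4 replicate 1 (edgeR adjusted p = 0.0571), or PL12 replicate 1 or 2 (edgeR adjusted p = 0.109 and 0.114). None of the 12 alternatives turned the direction of any H2-Eb1 comparison between lines. H2-Ea, the gene of the alpha chain that pairs with this beta chain, had 0 counts in all 8 libraries, which allows at most the floors given above. The overlapping antisense gene Gm20513 had at most 3 counts in any library.

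Class II promoters are known for an X box, read by RFX, and a Y box, an inverted CCAAT element read by NF-Y, at a fixed distance from each other. The RefSeq promoter table (GRCm38.p6, 250 bases before to 50 after the start of a gene) held entries for 4 of the 7 genes, H2-Aa, H2-Eb1, H2-DMa and H2-DMb1, and none for H2-Ab1, Ciita or Cd74. The promoters of H2-Aa (chr17:34287774-34288073, minus strand) and H2-Eb1 (chr17:34305617-34305916, plus strand) are printed whole, 5′ to 3′, because these chain genes were near the floor, or far lower, outside PLA. The capitals mark the letters GCAAC and, after 24 to 32 bases, ATTGG, which is CCAAT on the other strand.
H2-Aa: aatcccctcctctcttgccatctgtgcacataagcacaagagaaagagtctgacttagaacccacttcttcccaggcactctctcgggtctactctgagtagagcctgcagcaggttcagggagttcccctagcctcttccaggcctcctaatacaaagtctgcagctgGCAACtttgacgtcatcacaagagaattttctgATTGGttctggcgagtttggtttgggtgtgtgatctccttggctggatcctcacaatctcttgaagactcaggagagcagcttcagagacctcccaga
H2-Eb1: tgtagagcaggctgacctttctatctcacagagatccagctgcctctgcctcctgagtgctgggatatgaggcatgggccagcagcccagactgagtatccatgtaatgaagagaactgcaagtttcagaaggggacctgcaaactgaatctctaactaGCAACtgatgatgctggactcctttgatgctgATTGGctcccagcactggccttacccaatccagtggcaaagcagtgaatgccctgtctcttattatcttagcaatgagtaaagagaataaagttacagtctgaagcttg

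The first core begins at -81 from the start in H2-Aa and at -91 in H2-Eb1, with 28 and 27 bases between the cores. The pair, searched on both strands, occurred in 0.408% of 32851 mouse promoters of that length, whereas GCAAC alone occurred in 35.2% and CCAAT alone in 37.4%. The letters were chosen after seeing these sequences, so the shares describe them and are no independent test. The stretch around the cores, with 10 bases on either side, is printed for H2-DMb1 and for 3 class II genes outside the set, to compare genes with and without transcripts in PLA. All 4 lie on the plus strand of chromosome 17 (windows 34152941-34153240 for H2-DMb1, 34092129-34092428 for H2-Oa, 34238655-34238954 for H2-Ob and 34325425-34325724 for H2-Eb2).
H2-DMb1: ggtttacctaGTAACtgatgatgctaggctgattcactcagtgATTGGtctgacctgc
H2-Oa: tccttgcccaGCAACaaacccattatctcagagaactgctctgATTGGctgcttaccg
H2-Ob: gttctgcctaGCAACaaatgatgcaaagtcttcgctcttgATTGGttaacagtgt
H2-Eb2: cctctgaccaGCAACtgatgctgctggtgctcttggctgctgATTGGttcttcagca

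H2-DMb1 holds GTAAC in place of GCAAC, and the looser pair of GNAAC and ATTGG occurred in 1.54% of promoters. No such pair is in either of the 2 windows listed for H2-DMa. A window spans only 250 bases before to 50 after a listed start, so a pair elsewhere would be missed. The window of H2-DMb2, which had 0 counts in PLA, holds TTAAC and ATTGG, spaced as GTAAC and ATTGG are in H2-DMb1. It is no match only because the looser pair must begin with G. The lack of a match in H2-DMa and H2-DMb2 therefore does not show that these genes lack the element. H2-Oa, H2-Ob and H2-Eb2 hold the strict pair, but their transcripts were at or near 0: H2-Ob and H2-Eb2 had 0 counts in all 8 libraries, and H2-Oa had 8 counts in all. The letters were therefore shared by genes that differed widely in level within PLA. A match is a description of the sequence, not of binding.

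Cd74 (ENSMUSG00000024610.15, chr18:60803848-60812652, plus strand) encodes the invariant chain, which occupies the peptide groove and guides class II molecules to the endosome. It had 26.4 and 24.9 CPM in PLA and 0.341 and 0.0346 CPM in PLA4, against 1.37 and 1.09 CPM in PL12 and 0.0921 and 0.282 CPM in PL1. PL12, the line with the least H2-Ab1, thus came second for Cd74, and the libraries of PLA4 and PL1 overlapped. PLA exceeded PLA4 by 7.10 ± 1.08 on the log2 scale (SE; edgeR adjusted p = 0.00611), PL12 by 4.39 ± 0.94 (edgeR adjusted p = 0.0138) and PL1 by 7.07 ± 1.08 (edgeR adjusted p = 0.00640). The call against PL12 was lost without PLA replicate 1 or 2 (edgeR adjusted p = 0.0713 and 0.0668) or PL12 replicate 1 or 2 (edgeR adjusted p = 0.0956 and 0.108).

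PL12 over PL1 was 2.68 ± 0.93 for Cd74 (edgeR adjusted p = 0.0822) and PLA4 over PL12 was -2.72 ± 0.92 (edgeR adjusted p = 0.0602), so neither was called. Both passed without the filter on low counts (edgeR adjusted p = 0.0214 and 0.0134), by DESeq2 (adjusted p = 0.00596 and 0.00374) and without PLA4 replicate 1 (edgeR adjusted p = 0.0116 and 0.00642). PL12 over PL1 also passed without PLA4 replicate 2 (edgeR adjusted p = 0.0112). The libraries of PLA4 differed 9.84-fold in Cd74, from 44 and 5 counts (95% exact interval 3.91 to 31.8). In the same libraries, with replicate 1 first, the summed level of 10 macrophage and monocyte markers was 51.0 and 10.8 CPM, and that of 7 leukocyte markers 2.40 and 0.305 CPM. Cd14 (34.3 and 5.78 CPM) and Cd68 (14.9 and 3.57 CPM) made up most of the first sum, and Laptm5 (2.17 and 0.208 CPM) of the second. Ptprc, Tyrobp, Adgre1, C1qa, C1qb and C1qc had 0 counts in PLA4. These libraries differed over 2-fold in 1416 tested genes, and the epithelial marker Krt8 had 1686 and 56.2 CPM. The part of the markers in the Cd74 difference was not tested.

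H2-DMa and H2-DMb1 encode the chains of H2-M, which exchanges the invariant chain fragment for peptide. H2-DMa (ENSMUSG00000037649.10, chr17:34119541-34139101, plus strand) had 1.07 and 1.33 CPM in PLA and 2.57 and 1.36 CPM in PLA4, against 0.512 and 0.680 CPM in PL12 and 1.10 and 0.564 CPM in PL1. It was the only gene of the 7 whose level was not highest in the PLA libraries. The one call was PLA4 over PL12, 1.71 ± 0.50 on the log2 scale (edgeR adjusted p = 0.0393), and PLA over PLA4 was -0.71 ± 0.49 (edgeR adjusted p = 0.311). Leaving out PLA replicate 1 or 2 (edgeR adjusted p = 0.0834 and 0.0842), PLA4 replicate 1 (0.122) or PL12 replicate 1 or 2 (0.189 and 0.129) ended that call, as did the replicate block (0.0676). The start of H2-DMa overlaps Brd2, which lies on the opposite strand and had 10413 to 35412 expected counts per library. All 8 expected counts of H2-DMa were fractional, so reads were shared out between genes, and its values are uncertain to that extent. The gene CR974462.3, on the same strand within H2-DMa, had 7.07 to 50.9 expected counts, and which gene shared reads with H2-DMa is not recorded.

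H2-DMb1 (ENSMUSG00000079547.4, chr17:34153072-34160230, plus strand) had 4.57 and 4.13 CPM in PLA and 2.54 and 1.60 CPM in PLA4, against 1.60 and 1.76 CPM in PL12 and 2.03 and 0.970 CPM in PL1. Both PLA libraries were above the rest, and the other 3 lines overlapped. PLA exceeded PL12 by 1.37 ± 0.43 on the log2 scale (edgeR adjusted p = 0.0482) and PL1 by 1.54 ± 0.44 (edgeR adjusted p = 0.0434), while PLA over PLA4 was 1.07 ± 0.43 and not called (edgeR adjusted p = 0.108; 0.0474 without PL1 replicate 1). These calls stood close to the threshold. That against PL12 was lost without PLA replicate 1 or 2 (edgeR adjusted p = 0.216 and 0.172), PL12 replicate 1 or 2 (0.195 and 0.167), with DESeq2 size factors (0.0562) and with the replicate block (0.0531). That against PL1 was lost without PLA replicate 1 or 2 (edgeR adjusted p = 0.208 and 0.171), PL12 replicate 1 or 2 (0.0865 and 0.0862) or PL1 replicate 2 (0.104). H2-DMb2, its near-identical neighbour, had 6 counts in all 8 libraries.

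**Figure D2:**
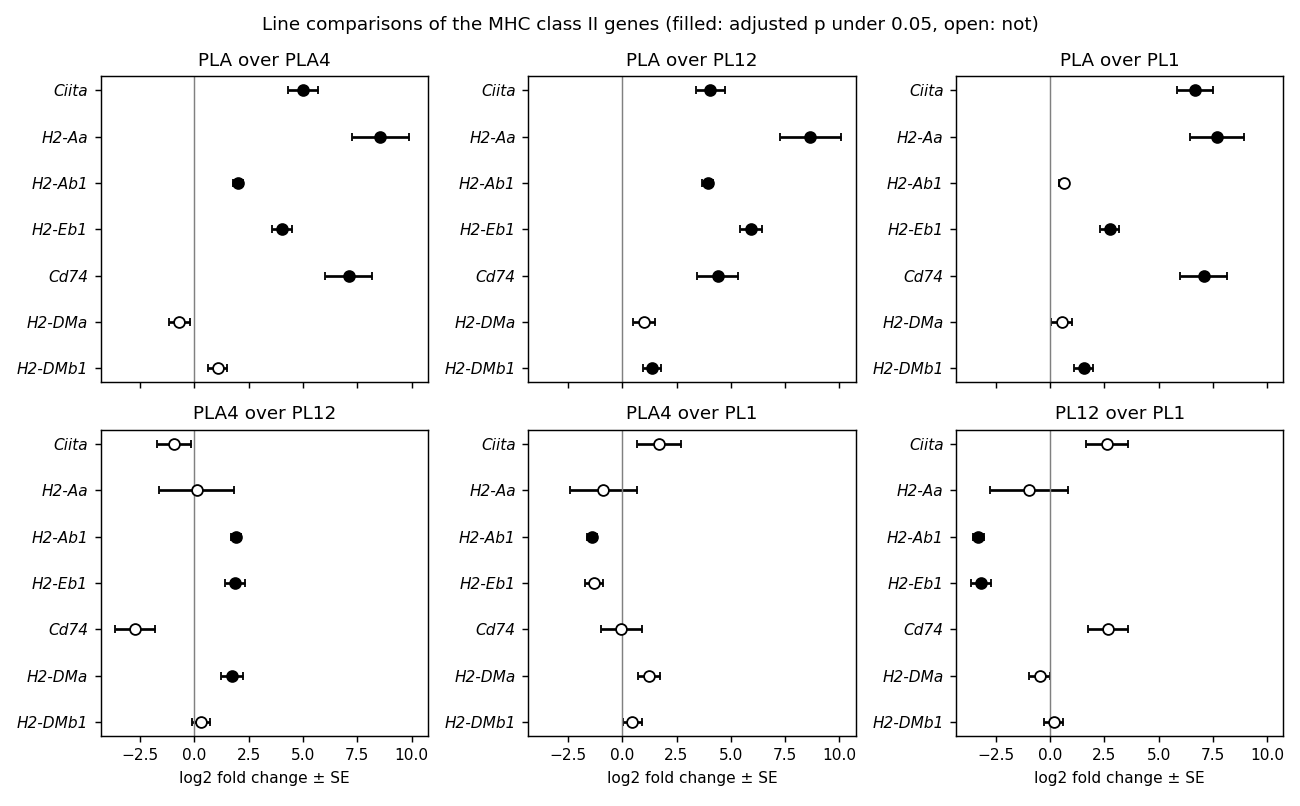
Log2 fold changes of the 7 genes in the 6 line comparisons, with standard errors; filled points have an edgeR adjusted p under 0.05 and open points do not. In the top row H2-Aa lies farthest from 0 (8.56, 8.66 and 7.69) and H2-DMa nearest. In the bottom row H2-Ab1 and H2-Eb1 lie side by side, with Cd74 on the other side of 0 for PLA4 over PL12 and PL12 over PL1.

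Counted over the 7 genes, 5 were called higher in PLA than in PLA4, where 14.9% of all tested genes were. For PLA over PL12 the count was 6, against 20.4% of all tested genes, and for PLA over PL1 it was 5, against 14.4%. None of the 7 was called lower in PLA, where 14.1%, 17.3% and 13.0% of tested genes were lower in these 3 comparisons. The median log2 fold change of the 7 genes was 4.03, 4.06 and 2.75, and that of all tested genes was -0.04, 0.05 and -0.01. For 6 of the 7 genes both PLA libraries lay above the other 6 libraries, which held for 19.8% of all tested genes. Ciita and H2-Aa entered all these counts only through their PLA libraries, so in comparisons with PLA they could be called only higher there. Without PLA replicate 1, 3 genes were called against PL12 and 2 against PL1, and without PLA replicate 2 the PL1 count was also 2. Without PL12 replicate 1 or 2 the PL12 count was 3.

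Between the lines outside PLA fewer genes differed. PLA4 had 3 genes called higher than PL12 (H2-Ab1, H2-Eb1 and H2-DMa), with a background of 19.2%. Without PLA replicate 1 or 2, or PL12 replicate 1 or 2, this count was 1. H2-Ab1 alone was called lower in PLA4 than in PL1, with a background of 3.93%; the count was 0 without PLA replicate 1 or 2 or PL12 replicate 1 or 2, and 2 without PL1 replicate 1. H2-Ab1 and H2-Eb1 were called lower in PL12 than in PL1, with a background of 12.5%; this count was 1 without PL12 replicate 1 or 2.

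By edgeR, few or no genes of any kind separated the PLA lines as a family from the PL lines. The counts of 0 among the 7 genes are therefore not particular to them. No member of the 7 was called in all 4 comparisons that set a PLA line against a PL line, where 1.99% of tested genes were called in the same direction. On counts summed per line, 5 of the 7 passed the filter (Ciita and H2-Aa did not), and edgeR called 0 of the 5. The background there was 0% of 18859 genes, with 867 genes (4.60%) and 0 of the 5 at an unadjusted p under 0.05, and DESeq2 called 354 genes, with 0 of the 5 among them. The log2 difference of PLA lines over PL lines was 4.24 ± 2.38 for Cd74, 2.65 ± 1.78 for H2-Eb1 and 0.79 ± 1.29 for H2-Ab1 (SE, 2 lines a family; edgeR adjusted p = 0.852, 0.857 and 0.922). It was 1.13 ± 0.67 for H2-DMa and 1.04 ± 0.71 for H2-DMb1 (edgeR adjusted p = 0.852 and 0.858). Without the line PLA the values of Cd74, H2-Eb1 and H2-Ab1 turned to -1.95, -0.51 and -0.57, while those of H2-DMa and H2-DMb1 were 1.43 and 0.37.

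TPM, which is scaled per transcript length, allows the genes to be set beside each other. The 7 genes summed to 107 and 101 TPM in PLA and 19.0 and 16.2 TPM in PLA4, against 8.59 and 8.04 TPM in PL12 and 26.8 and 40.5 TPM in PL1. In PLA the beta chain H2-Ab1 took 41.3% and 41.9% of that sum and Cd74 35.0% and 35.3%. In PL12, H2-Ab1 took 34.6% and 33.0%, Cd74 21.5% and 18.3%, and H2-DMb1 21.9% and 25.5%. PL1 was again unlike PL12: H2-Ab1 alone took 77.7% and 87.0%, and Cd74 0.785% and 1.01%.

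The balance of the chains differed in the same way. The ratio of H2-Ab1 to H2-Aa was 8.29 and 8.80 in the PLA libraries on the TPM scale, so the alpha chain was the lesser partner there too. H2-Aa was listed at 0 TPM in 3 of the other 6 libraries and rested on at most 3 counts in the rest, so no ratio is given for them. H2-Ab1 over H2-Eb1 was 3.60 and 4.02 in PLA and 9.62 and 16.3 in PLA4, against 11.0 in both PL12 libraries and 16.8 and 15.9 in PL1. H2-Ab1 over Cd74 was 1.18 and 1.19 in PLA and 22.4 and 215 in PLA4, against 1.61 and 1.80 in PL12 and 99 and 86.0 in PL1. The values 215 and 99 rest on 5 and 8 Cd74 counts and are imprecise. On this measure PL12 lay near PLA, at a far lower total.

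**Figure D3:**
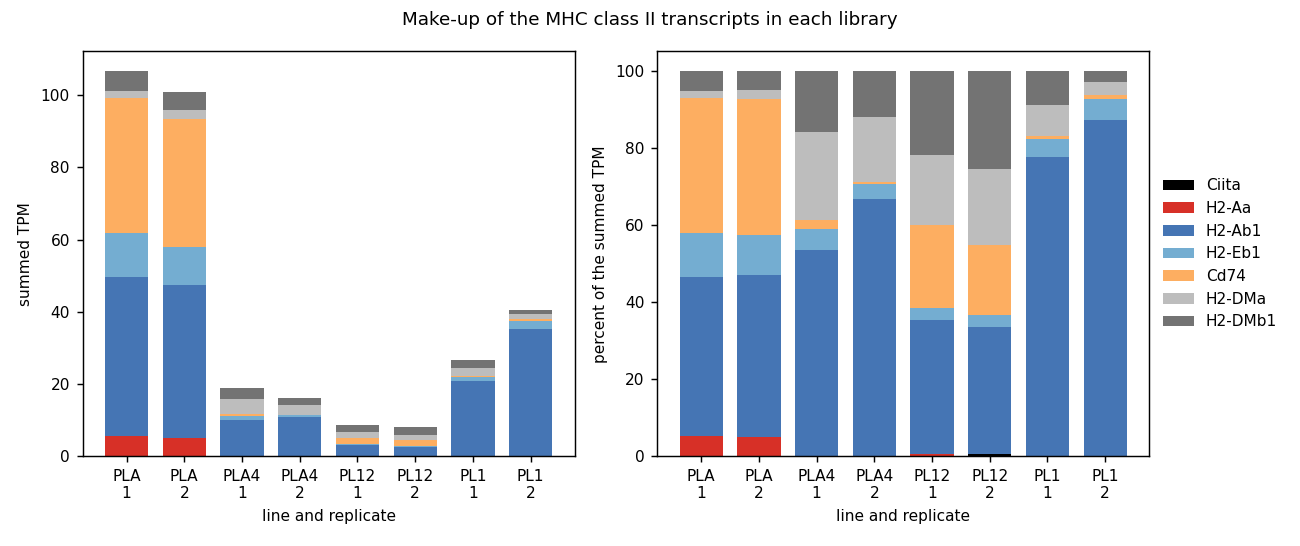
TPM of the 7 genes stacked for each library (left) and as percent of their sum (right), with lines from left to right in the order PLA, PLA4, PL12, PL1. The sum is highest in PLA (107 and 101 TPM), and H2-Ab1 fills 77.7% and 87.0% of the bars of PL1, where Cd74 is barely visible.

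In the contrast of PLA with the other lines, the transactivator went with H2-Aa, H2-Eb1, Cd74, H2-Ab1 and H2-DMb1. Each had both PLA libraries above the other 6 libraries, which held for 19.8% of all tested genes. Ciita and H2-Aa passed the filter on low counts only through PLA, so that these genes coincide there was fixed in advance. For H2-Ab1 the difference between PLA and PL1 was not called, nor for H2-DMb1 that between PLA and PLA4. Among the lines outside PLA, Ciita was too low to tell whether it went with any chain. The libraries with over 5 Ciita counts, the PLA pair, were also those with over 3 H2-Aa counts and the highest H2-Eb1, Cd74, H2-Ab1 and H2-DMb1. These limits of 5 and 3 are the highest counts found outside PLA. PL12, with 1 and 5 Ciita counts, had 9.87-fold less H2-Ab1 in the edgeR fit than PL1, with 0 and 1 Ciita counts. H2-Eb1 likewise was 9.0-fold lower in PL12 than in PL1, whereas Cd74, like Ciita, had its highest mean of these 3 lines in PL12. Ciita counts of 0 to 5 give no order among these 3 lines: no comparison of Ciita between them was called (edgeR adjusted p = 0.10 for PL12 over PL1, 0.363 for PLA4 over PL1 and 0.379 for PLA4 over PL12).

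**Figure D4:**
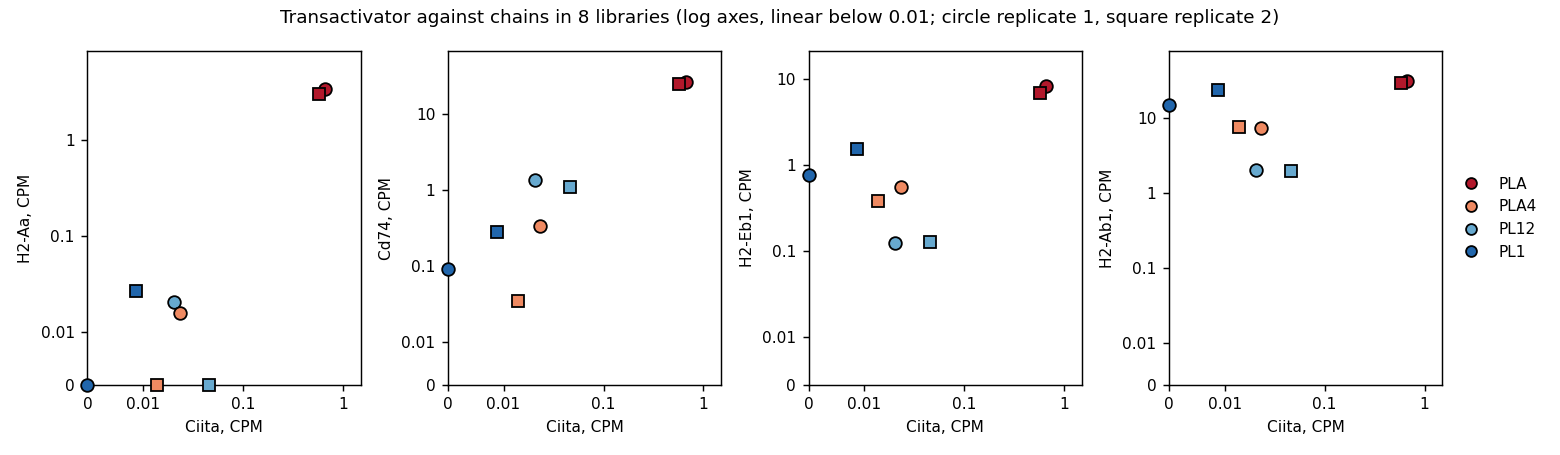
H2-Aa, Cd74, H2-Eb1 and H2-Ab1 against Ciita in the 8 libraries, both in CPM on log axes that are linear below 0.01; colour gives the line and shape the replicate. PLA stands apart at the upper right of the first 3 panels, and in the H2-Ab1 panel the PL1 libraries (14.9 and 23.7 CPM) reach near the PLA level with 0 and 1 Ciita counts.

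The genes whose pattern over the 8 libraries was most like that of Ciita were Slc47a1, Upk3a, Mmrn2, Itgam and Gdf10, with Pearson r of log2(CPM + 1) from 0.994 to 0.997. Slc47a1 had 97.7 and 89.8 CPM in PLA and at most 0.0485 CPM in any other library. Those most like Cd74 were Rint1, Sp140, Tmem86a, Misp and H2-Q7, with r from 0.992 to 0.996. Of these, the class I gene H2-Q7 had 25.7 and 23.9 CPM in PLA and at most 0.716 CPM elsewhere. Among 10305 genes that averaged 5 CPM or more, 100 (0.970%) had an r over 0.95 with Ciita and 134 (1.30%) with Cd74. These values rest on the contrast of the PLA libraries with the rest, and libraries of a line share that line.

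The factors on which CIITA is assembled were present in every line. All 7 genes of the class II promoter complex were tested, and against PLA4, PL12 and PL1 in turn 0, 1 and 1 were higher in PLA and 1, 1 and 2 lower. Among all tested genes, 14.9%, 20.4% and 14.4% were higher and 14.1%, 17.3% and 13.0% lower. Rfx5, the RFX subunit that contacts the X box, had 54.3 and 52.6 CPM in PLA and 48.4 and 42.7 CPM in PLA4, against 29.1 and 26.5 CPM in PL12 and 37.4 and 39.1 CPM in PL1. It was higher in PLA than in PL12 by 0.94 ± 0.12 on the log2 scale (edgeR adjusted p = 0.00238) and than in PL1 by 0.48 ± 0.12 (edgeR adjusted p = 0.0285). Nfyc went the other way, with PLA over PL12 at -0.67 ± 0.13 (edgeR adjusted p = 0.00836) and PLA over PL1 at -0.49 ± 0.13 (edgeR adjusted p = 0.0325). Rfxap was lower in PLA than in PLA4 (-0.61, edgeR adjusted p = 0.0417) and Creb1 lower than in PL1 (-0.42, edgeR adjusted p = 0.0477). The median log2 fold change of the 7 was -0.27, -0.13 and -0.31 against PLA4, PL12 and PL1.

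Of 12 genes on the route from interferon gamma to Ciita, 10 were tested. Higher in PLA were 5 against PLA4, 4 against PL12 and 3 against PL1, where 14.9%, 20.4% and 14.4% of all tested genes were higher, and none was lower. Ifng itself had 2 counts over all 8 libraries. Jak2, the kinase of the interferon gamma receptor, had 117 and 120 CPM in PLA and 67.5 and 74.4 CPM in PLA4, against 65.4 and 55.4 CPM in PL12 and 66.4 and 51.1 CPM in PL1. It was called higher in PLA in all 3 comparisons, by 0.74 to 1.01 on the log2 scale, as was Irf2, a factor that binds interferon response elements, by 0.43 to 0.70 (largest edgeR adjusted p = 0.0192 and 0.0457).

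Nlrc5, the relative of Ciita that acts on class I genes, had 5.12 and 5.74 CPM in PLA and 0.271 and 0.0831 CPM in PLA4, against 0.593 and 0.588 CPM in PL12 and 0.0460 and 0.908 CPM in PL1. Both PLA libraries were above all others. The difference was called against PLA4 (4.94 ± 1.28, edgeR adjusted p = 0.0321), but not against PL12 (3.20 ± 1.18, edgeR adjusted p = 0.0753) or PL1 (3.49 ± 1.19, edgeR adjusted p = 0.0721).

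Of 9 endosomal processing genes tested, 1, 3 and 2 were higher in PLA than in PLA4, PL12 and PL1, and 1, 0 and 0 lower. Of all tested genes, 14.9%, 20.4% and 14.4% were higher and 14.1%, 17.3% and 13.0% lower. Ctss, the protease that trims the invariant chain, had 4.66 and 4.38 CPM in PLA and 0.441 and 0.0277 CPM in PLA4, against 0 in both PL12 libraries and 0 and 0.0353 CPM in PL1. It was called against PL12 (edgeR adjusted p = 0.0147) and PL1 (edgeR adjusted p = 0.0254), not against PLA4 (edgeR adjusted p = 0.0667). Among 4 costimulation genes tested, 1, 3 and 2 were higher in PLA and none lower, beside the same background. Cd274, which encodes the inhibitory ligand PD-L1, had 14.4 and 14.7 CPM in PLA and 2.07 and 2.48 CPM in PLA4, against 1.27 and 1.12 CPM in PL12 and 0.875 and 2.48 CPM in PL1, and was higher in PLA in all 3 comparisons (largest edgeR adjusted p = 0.0107). Cd86, a costimulatory ligand of antigen-presenting cells, had 1 count in all. Of 4 tested genes for ligands and receptors that act with Cd74 at the cell surface, 0, 1 and 0 were higher in PLA and 2, 0 and 0 lower, beside the same background.

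**Figure D5:**
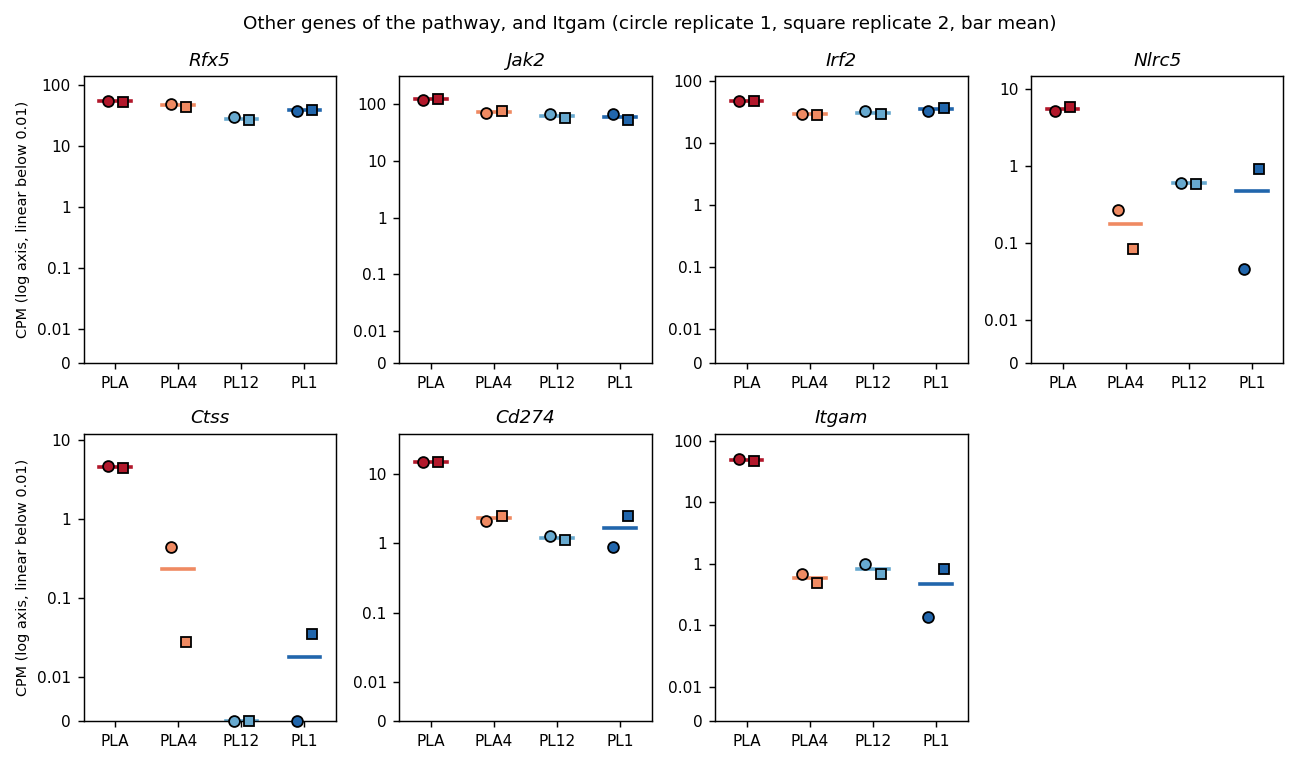
CPM of 7 further genes in each library, on a log axis that is linear below 0.01, with lines from left to right in the order PLA, PLA4, PL12, PL1. Rfx5, Jak2 and Irf2 are well detected in every line, whereas Nlrc5, Ctss, Cd274 and Itgam have both PLA libraries far above the rest.

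Markers of the cells that carry class II in tissue were examined in the same libraries. Ptprc, the pan-leukocyte gene, had 0 counts in both PLA libraries and 7 in all, and Tyrobp, C1qa, C1qb and C1qc had 0 counts in all 8. Of the B cell genes, Ms4a1 had 2 counts in all, while Cd79b had 0.658 and 0.576 CPM in PLA and 0.224 and 0.00692 CPM in PLA4, against 0.0205 and 0.0184 CPM in PL12 and 0 and 0.220 CPM in PL1. Of the dendritic cell genes, Cd209a had 0 counts, while Zbtb46 had 1.85 and 1.79 CPM in PLA and 2.00 and 0.630 CPM in PLA4, against 6.10 and 6.07 CPM in PL12 and 1.47 and 1.53 CPM in PL1. The marker lists thus held genes at 0 beside genes at a measurable level.

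The monocyte genes Cd14 (115 and 111 CPM) and Cd68 (29.0 and 27.2 CPM) and the leukocyte gene Laptm5 (2.75 and 2.87 CPM) were also detected in PLA. Cd14 had 175 and 180 CPM in PL12. Other genes of these lists were called lower in PLA than in PL12: Mrc1, Csf1r, Cd52 and Cd53 (log2 differences -6.91, -1.62, -4.61 and -3.70). Cd53 was also called lower than in PL1 (-3.53). Mrc1 and Csf1r were called higher in PLA than in PLA4 (3.33 and 2.04), and Csf1r than in PL1 (2.06). Under 0.1 CPM in every library were 3 of 7 leukocyte, 5 of 10 macrophage and monocyte, 5 of 7 dendritic cell, 4 of 5 B cell and 3 of 4 T cell markers. The summed leukocyte markers had 3.85 and 3.89 CPM in PLA and 2.40 and 0.305 CPM in PLA4, against 2.64 and 2.41 CPM in PL12 and 0.713 and 2.57 CPM in PL1. The macrophage and monocyte markers summed to 200 and 191 CPM in PLA and 51.0 and 10.8 CPM in PLA4, against 262 and 261 CPM in PL12 and 12.5 and 95.4 CPM in PL1. Cd14 and Mrc1 (64.8 and 61.9 CPM) made up most of the sum in PL12.

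Itgam, an integrin of myeloid cells, had 51.5 and 48.1 CPM in PLA and at most 1.00 CPM in any other library, and Cd4 had 0.877 and 1.41 CPM in PLA and at most 0.0155 CPM elsewhere. Both were called higher in PLA in all 3 comparisons (largest edgeR adjusted p = 0.00352 and 0.0136), as was the leukocyte gene Coro1a (0.0318). The dendritic cell list summed to 1.86 and 1.87 CPM in PLA and 2.04 and 0.679 CPM in PLA4, against 6.28 and 6.27 CPM in PL12 and 1.48 and 1.59 CPM in PL1. The B cell list summed to 0.699 and 0.601 CPM in PLA and at most 0.264 CPM elsewhere. The part of these genes in the class II values was not tested.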

How the data were processed

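The authors deposited expected counts per gene and TPM for 8 libraries, per the file headers. Tools named in the submitters' processing notes are STAR, RSEM, FastQC and DESeq2, with the build GRCm38; versions, annotation release and the strand setting of the counting are not given in the sources used here. Per the labels' protocols, cDNA was made with a SMARTer kit and libraries with Nextera XT. Expected counts (14.2% of values not whole) were rounded and fitted with edgeR 4.0.16 (R 4.3.3; TMM, filterByExpr with a minimum count of 10 and total of 15, glmQLFit and glmQLFTest), with 1 mean per line, 4 residual degrees of freedom and 18648 genes; adjusted p is by Benjamini-Hochberg over all tested genes, with a threshold of 0.05. PLA and PL lines were compared on counts summed per line (2 residual degrees of freedom). The fit was tested on simulated data. CPM uses TMM-scaled library sizes. Coordinates are from GENCODE M21, where 54435 gene identifiers matched with version and 55227 without. The genes, lists, naming rule and tests were chosen with earlier results of these data known, and the promoter letters after seeing the sequences. Genes named outside the set passed in each comparison of PLA with another line (at most 4 per list), describe a list, or had the 5 highest correlations. Replicate numbers do not pair the samples. Alternatives were DESeq2 1.42.0 (size factors; Wald test), no filter, a replicate block, deposited TPM and leaving out each library, or the line PLA. Some genes of the lists are not reported by name here.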

Additional observations from a re-analysis of the deposited data

How the results depend on the processing

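Leaving out each library in turn gave 4 to 6 called genes for PLA over PLA4, 3 to 6 for PLA over PL12, 2 to 5 for PLA over PL1, 1 to 3 for PLA4 over PL12, 0 to 2 for PLA4 over PL1 and 1 to 3 for PL12 over PL1. Calls over all genes moved in the same fits, from 1051 to 6618 for PLA over PLA4, 2459 to 8564 for PLA over PL12, 1090 to 6916 for PLA over PL1, 2454 to 7679 for PLA4 over PL12, 199 to 2648 for PLA4 over PL1 and 763 to 6128 for PL12 over PL1. A line left with 1 library is assumed to vary like the others, and such fits have fewer residual degrees of freedom. For PLA4 over PL1 the DESeq2 Wald test called 2 genes and the fit with replicate number as a block 0. Correlations of replicate differences between lines ran from -0.19 to 0.01, so the numbers share only a name; the block lowered PLA over PL12 to 5 called genes and PLA4 over PL12 to 2. The counts of 0 among the 7 genes, between families and in all 4 comparisons of a PLA with a PL line, held in every alternative, while over all genes DESeq2 called 354 between families and the fit with no filter 1. In the leave-one-out fits some uncalled log2 differences turned direction: H2-Aa ran from -2.74 to 3.0 for PLA4 over PL12, -3.74 to 2.91 for PLA4 over PL1 and -3.86 to 2.79 for PL12 over PL1, with at most 3 counts a library; Cd74 from -2.43 to 1.01 for PLA4 over PL1; H2-DMa from -0.87 to 0.082 for PL12 over PL1; and H2-DMb1 from -0.068 to 0.59 for PLA4 over PL12 and -0.26 to 0.79 for PL12 over PL1. Without the line PLA, PLA4 over the PL lines was -0.57 for H2-Ab1, -0.51 for H2-Eb1 and -1.95 for Cd74. The cause of these turns was not tested. With the deposited TPM, PL1 stood above PLA4 for Cd74, and the order of the lines was the same for the other 6 genes. The depth limits Ciita and H2-Aa outside PLA, where libraries held at most 5 and 3 counts.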
